A study of Mus musculus with 45 samples.

Results

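The loci of 6 genes of cell division and DNA damage response, Ccnd1, Cdkn1a, Gadd45b, Brca1, Mki67 and Trp53, were followed across 2 mouse models of neurodegeneration by H3K9ac, the acetyl mark on lysine 9 of histone H3 that active promoters and enhancers carry. The members are the 24 H3K9ac domains, of 44165 in the deposited set, that overlap by at least 1 base a fixed window around each gene. The mm9 windows span 25 kb at Ccnd1, 30 kb at Cdkn1a, 20 kb at Gadd45b, 85 kb at Brca1, 40 kb at Mki67 and 25 kb at Trp53. They hold 6 domains at Ccnd1, 3 at Cdkn1a, 6 at Gadd45b, 3 at Brca1, 2 at Mki67 and 4 at Trp53. The gene names belong to the windows. The files name no genes, so which start site a domain covers was not determined, and a domain may belong to a neighbouring gene. In the RefSeq gene order of GRCm38, for example, the gene after Brca1 is Nbr1, the gene before Trp53 is Wrap53, and Cdkn1a lies between Trp53cor1, a long noncoding RNA gene also called lincRNA-p21, and Rab44.

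Cyclin D1, the product of Ccnd1, partners the kinases that carry a cell through the first phase of division, and p21, the product of Cdkn1a, inhibits cyclin-dependent kinases and halts the cycle. Trp53 encodes the transcription factor p53, which is activated by DNA damage and switches on Cdkn1a among other genes. Gadd45b belongs to a stress-induced family with roles in growth arrest, DNA repair and DNA demethylation, Brca1 encodes a protein of homologous recombination repair, and Mki67 encodes Ki-67, a protein of dividing cells. Adult neurons do not divide, and the reappearance of cell cycle proteins and DNA breaks in neurons has been described in the CK-p25 model.

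The tissue was hippocampus, taken as a whole, so a change in the mix of cells and a change of acetylation within cells cannot be told apart. Tau mice carry the human MAPT transgene with the P301S mutation, a model of tau aggregation, and the labels do not name the promoter that drives it. They were profiled at 11 months (3 libraries, against 3 of wild type) and 6 months (2 libraries, against 3 of wild type). The older mice were males and the younger ones females, so age and sex change together. CK-p25 mice carry 2 transgenes, which let p25, a truncated protein that activates Cdk5, be induced in forebrain neurons under the Camk2a promoter. They were compared with CK control mice 6 weeks after induction, at 4.5 months of age, and 2 weeks after induction, at 3.5 months, with 3 libraries per group, all from females. Each tau or wild type library had 4097974 to 6181925 reads in domains and each library of the CK-p25 series 996369 to 4133003. The libraries labelled replicate 3 at 6 weeks were the shallowest, with 1308372 reads for CK-p25 and 996369 for CK. The labels also give a cross correlation, a measure of ChIP enrichment, for each library. At 11 months it averaged 0.228 ± 0.0263 for tau and 0.313 ± 0.0250 for wild type (SD, n = 3 each), without overlap.

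The promoters of the genes that the results turn on are shown first, as the 250 bases before a RefSeq start site on GRCm38.p6, a build other than that of the domains, so the coordinates of the 2 cannot be set side by side. The table held starts for 5 of the 6 genes, 2 of them for Cdkn1a. Capitals mark each match, on either strand, to the CCAAT box (CCAAT), CHR elements of cell cycle genes (TTTGAA or TTCGAA), E2F-type sites (TTTCGCG or TTTGGCG), the E box (CACGTG), the GC box (GGGCGG), the TATA box (TATAAA) and pairs of p53 half-sites at most 13 bases apart. No match overlapped another. The p53 search was added after the Cdkn1a sequence had been seen. The Cdkn1a starts lie on the + strand, with upstream regions at chr17:29090729-29090978 and chr17:29093519-29093768, that of Gadd45b on the + strand at chr10:80929841-80930090 and that of Mki67 on the - strand at chr7:135716380-135716629.
Cdkn1a, first start: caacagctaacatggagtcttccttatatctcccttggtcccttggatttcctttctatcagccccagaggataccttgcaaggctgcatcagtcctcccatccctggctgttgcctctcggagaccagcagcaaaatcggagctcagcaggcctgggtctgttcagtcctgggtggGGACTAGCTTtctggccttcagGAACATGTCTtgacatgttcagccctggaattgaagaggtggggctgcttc
Cdkn1a, second start: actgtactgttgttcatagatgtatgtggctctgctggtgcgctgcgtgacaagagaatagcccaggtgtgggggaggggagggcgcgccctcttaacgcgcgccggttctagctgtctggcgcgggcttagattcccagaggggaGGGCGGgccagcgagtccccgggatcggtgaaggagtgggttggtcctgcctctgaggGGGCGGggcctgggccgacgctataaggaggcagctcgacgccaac
Gadd45b: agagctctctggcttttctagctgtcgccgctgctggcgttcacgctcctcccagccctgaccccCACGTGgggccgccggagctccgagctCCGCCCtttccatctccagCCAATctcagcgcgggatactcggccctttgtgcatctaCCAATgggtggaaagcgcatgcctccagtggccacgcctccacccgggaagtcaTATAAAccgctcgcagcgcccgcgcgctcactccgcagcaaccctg
Mki67: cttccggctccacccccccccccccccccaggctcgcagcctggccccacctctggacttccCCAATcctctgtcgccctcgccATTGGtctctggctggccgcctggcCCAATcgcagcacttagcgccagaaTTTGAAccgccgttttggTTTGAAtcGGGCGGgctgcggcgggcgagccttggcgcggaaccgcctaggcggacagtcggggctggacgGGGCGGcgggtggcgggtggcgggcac
The first Cdkn1a start holds a pair of exact matches to the p53 half-site pattern, which begin 73 and 51 bases before the start. The bases directly after the second match, tgacatgttc, depart from the pattern at their first base and were therefore not marked. The marked pair thus depends on the demand for exact matches, and which half-sites p53 binds was not tested. A pair of exact matches was found in 0.0639% of 32851 upstream regions of this length. The second Cdkn1a start holds 2 GC boxes (a GC box was in 32.7% of regions) and has 64.8% G and C, against 54.0% at the first. Gadd45b holds 2 CCAAT boxes (33.8% of regions have one), an E box (6.02%), a GC box and a TATA box (12.4%). Mki67 holds 3 CCAAT boxes, 2 GC boxes and 2 CHR elements (17.1%), the last beginning 116 and 98 bases before the start. Brca1 holds 1 CCAAT box, and Trp53 a CCAAT box and a TATA box, the TATA box 248 bases before the start. E2F-type sites (1.93% of regions) were not found in the upstream regions of these 6 starts.

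Calls among the 24 domains are given beside the share of all domains that passed. In tau mice at 11 months 3 domains rose and 1 fell among 24 tested. Both gains at Cdkn1a, 1 gain at Gadd45b and the loss at Ccnd1 make up this count. Among all 44105 domains tested, 12% passed in either direction, 4.4% as gains and 7.56% as losses. Wide domains passed more often: of those of at least 2000 bp, which take in the leading domains other than that of Mki67, 28% passed, 6.84% as gains and 21.2% as losses. Of the 4 called members, peak39232 and peak19135 are of that width, while peak39230 and peak25268 are not. The 4 called members were also the only ones of the 24 at an unadjusted p under 0.05 in edgeR, against 23.7% of all domains. The median log2 change was 0.06 over the 24 domains and 0.01 over all domains. At 6 months 0 of 24 passed in edgeR's test and in DESeq2, and 0% of all domains passed. At an unadjusted p under 0.05 were 0 of the 24 and 3.23% of all domains. In CK-p25 mice 6 weeks after induction 0 of 23 domains passed in edgeR and in DESeq2, and 2.65% of 38193 domains did. At an unadjusted p under 0.05 were 2 of the 23 and 12.5% of all domains. At 2 weeks after induction 1 of 23 rose, a low domain in the Mki67 window, against 2.12% of all domains (1.51% as gains). Averaged over both times 1 of 23 rose, a low domain in the Brca1 window, against 5.95% of all domains (3.2% as gains). Both of these low domains met the filter on low counts mainly through CK-p25 libraries, so these 2 counts are no support for a gain. In edgeR the unadjusted p at 2 weeks was under 0.05 for 4 of the 23, both low domains among them. This held for 10.6% of all domains. The 1 domain left out of the CK-p25 tests, peak25269 in the Gadd45b window, did not pass the filter on low counts.

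**Figure D1:**
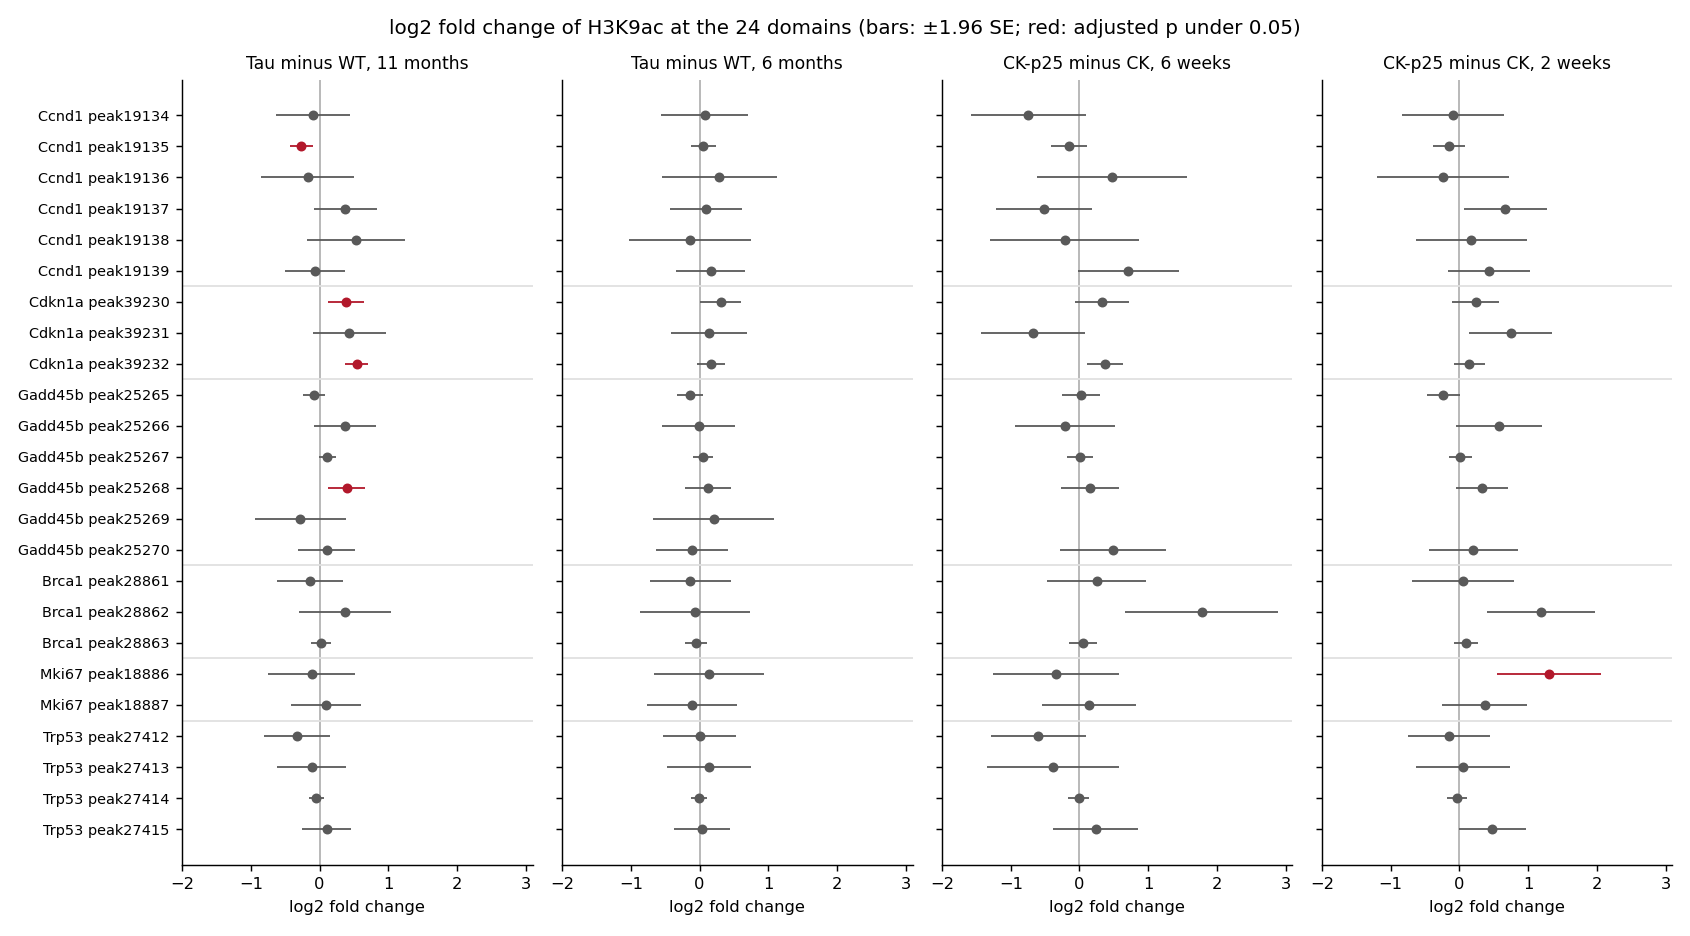
Log2 fold change of H3K9ac (x axis) at each of the 24 domains (rows, grouped by window) in the 4 comparisons of a model with its control; points are edgeR estimates, bars are approximate 95% intervals, and red marks an adjusted p under 0.05. Red points are confined to peak39232, peak39230, peak25268 and peak19135 in tau mice at 11 months and to peak18886 in CK-p25 mice at 2 weeks, and bars are narrowest for the domain with the most reads in the Trp53 window, peak27414.

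The gain at Cdkn1a had the lowest adjusted p of these changes. The leading domain of this window, peak39232 (mm9 chr17:29230413-29233062, 2650 bp), had 61.8, 66.1 and 65.0 CPM (reads scaled to a common library size by TMM) in tau mice at 11 months, against 45.6, 47.3 and 39.1 CPM in wild type mice. Every tau library thus lay above every wild type library. How many of all domains separate their groups in this way was not computed. Separation is therefore given, here and below, as a description. The means were 64.3 ± 2.24 and 44.0 ± 4.34 CPM (SD, n = 3 each), a fold of 1.45 and 0.54 ± 0.08 (SE) on the log2 scale, which passed the test (edgeR adjusted p = 1.20e-06). With each of the 6 libraries left out in turn the log2 change was 0.46 to 0.60 and the domain passed each time. The tau libraries were also those with lower cross correlation. With cross correlation as a covariate the log2 change was 0.56 ± 0.19 and did not pass (edgeR adjusted p = 0.129), and since the groups do not overlap in it, ChIP enrichment and genotype cannot be told apart here.

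The other end of the Cdkn1a window moved the same way by a smaller amount. In peak39230 (mm9 chr17:29214864-29216275, 1412 bp) the levels were 21.6, 20.2 and 22.8 CPM in tau mice at 11 months, against 17.1, 16.1 and 16.2 CPM in wild type mice. The groups did not overlap, and the log2 change was 0.38 ± 0.13 (edgeR adjusted p = 0.0452). This call was near the threshold and was lost when any 1 library other than tau replicate 2 was left out (edgeR adjusted p 0.0747 to 0.180), and also in DESeq2 (adjusted p = 0.137). It was lost too with the compared groups alone (edgeR adjusted p = 0.0668) and with the cross correlation covariate (log2 0.50 ± 0.29, edgeR adjusted p = 0.523). Between them lies the narrow peak39231 (570 bp), at 4.95 ± 0.814 CPM in tau and 3.66 ± 0.493 CPM in wild type mice (SD, n = 3 each), where a log2 change of 0.43 ± 0.27 did not pass (edgeR adjusted p = 0.349). Of the 28 tested domains within 250 kb outside the Cdkn1a window, 1 rose and 3 fell in tau mice at 11 months, with a median log2 change of 0.06. Among all domains tested 4.4% rose and 7.56% fell.

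At 6 months peak39232 stood at 52.7 and 48.6 CPM in tau mice and 49.5, 38.1 and 47.8 CPM in wild type mice, with overlapping groups (log2 0.17 ± 0.10, edgeR adjusted p = 1). In peak39230 the 2 tau libraries, at 20.7 and 20.02 CPM, lay above the 3 wild type libraries, at 17.8, 16.7 and 14.9 CPM, with a log2 change of 0.31 ± 0.16 that did not pass (edgeR adjusted p = 1). The effect of tau on peak39232 was larger at 11 than at 6 months by 0.38 ± 0.13 on the log2 scale, which missed the threshold (edgeR adjusted p = 0.102). It passed with library totals in place of TMM or without wild type replicate 2 at 6 months. Over the 24 domains the difference between ages passed at 0 in edgeR and in DESeq2, and 4.23% of all domains passed. At an unadjusted p under 0.05 were 2 of the 24 and 14.5% of all domains.

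In CK-p25 mice peak39232 was on average higher than in CK mice, by amounts that did not pass the test. At 6 weeks after induction the levels were 50.6, 50.9 and 66.3 CPM in CK-p25 mice, against 39.1, 41.0 and 48.6 CPM in CK mice, again without overlap (log2 0.37 ± 0.14, edgeR adjusted p = 0.140). At 2 weeks after induction they were 47.3, 51.9 and 67.6 CPM in CK-p25 mice and 52.4, 45.0 and 52.8 CPM in CK mice, and the groups overlapped (log2 0.14 ± 0.11, edgeR adjusted p = 0.753). With single libraries left out the log2 difference was 0.29 to 0.44 at 6 weeks and -0.002 to 0.25 at 2 weeks. In both CK-p25 groups the library labelled replicate 3 was the highest, and at both times it was the shallowest of its group. The mean of both times was 0.26 ± 0.09 (edgeR adjusted p = 0.0654). It ranged from 0.19 to 0.31 with single libraries left out, passing without CK-p25 replicate 1 at 2 weeks and without CK replicate 3 at 6 weeks. Cross correlation, at 0.131 ± 0.0527 in CK-p25 and 0.0928 ± 0.0387 in CK libraries at 6 weeks and 0.167 ± 0.0234 and 0.138 ± 0.0368 at 2 weeks (SD, n = 3 each), was on average higher in CK-p25 mice. With it as a covariate the mean of both times was 0.40 ± 0.09 (edgeR adjusted p = 0.00295). Within each group of this series the libraries had the same order in cross correlation as in reads in domains. The covariate therefore cannot be told apart from depth here. In peak39230 the mean of both times was 0.28 ± 0.13 (edgeR adjusted p = 0.270), from 24.5, 26.8 and 25.9 CPM in CK-p25 and 14.8, 28.7 and 23.3 CPM in CK mice at 6 weeks and 19.6, 22.1 and 33.6 CPM in CK-p25 and 21.5, 17.8 and 24.4 CPM in CK mice at 2 weeks. The narrow peak39231 stood at 3.48 ± 0.536 CPM in CK-p25 and 5.98 ± 1.59 CPM in CK mice at 6 weeks, and at 7.76 ± 1.35 CPM in CK-p25 and 4.40 ± 1.03 CPM in CK mice at 2 weeks (SD, n = 3 each). The groups did not overlap at either time and lay in opposite orders, but neither difference passed (edgeR adjusted p = 0.486 at 6 weeks and 0.280 at 2 weeks), nor did the effect at 6 weeks minus that at 2 weeks, -1.42 ± 0.49 (edgeR adjusted p = 0.964).

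**Figure D2:**
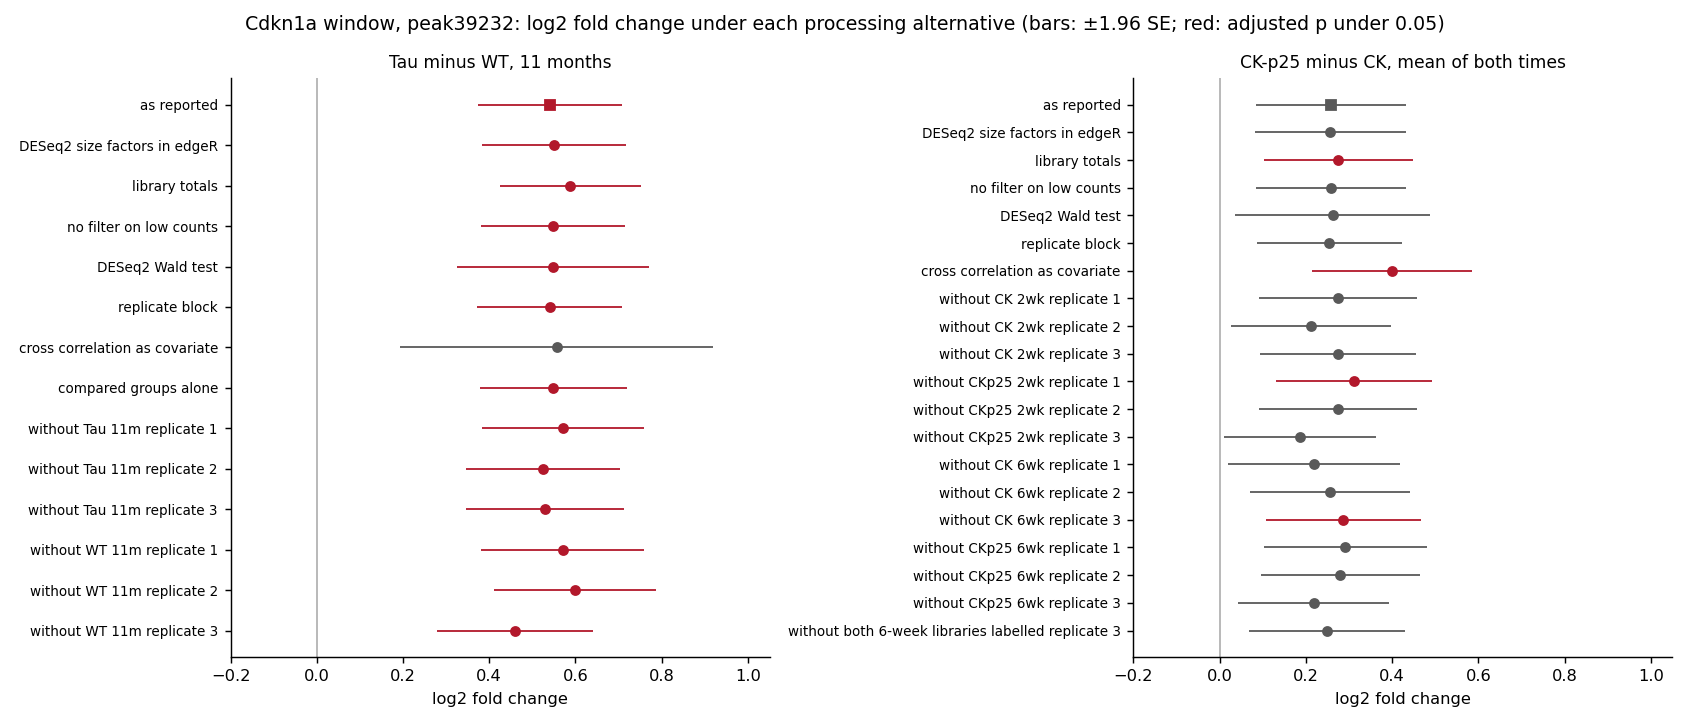
Log2 fold change (x axis) of peak39232 in the Cdkn1a window under each way of processing the counts (rows); bars are approximate 95% intervals, the square is the value as reported, and red marks an adjusted p under 0.05. For tau mice at 11 months (left) all values lie between 0.46 and 0.60 and all but that with the cross correlation covariate are red, whereas for the mean of both CK-p25 times (right) the value as reported, 0.26, is not.

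At Ccnd1 the leading domain was lower in tau mice at 11 months. Levels of peak19135 (mm9 chr7:152123119-152125757, 2639 bp) were 42.4, 43.4 and 41.4 CPM in tau mice, against 51.9, 46.8 and 52.6 CPM in wild type mice. All tau libraries were below all wild type libraries, and H3K9ac fell by 0.26 ± 0.08 on the log2 scale (a fold of 0.833; edgeR adjusted p = 0.0256). The change was small and its call depended on the processing. This call was lost with library totals (edgeR adjusted p = 0.0769), in DESeq2 (adjusted p = 0.142) and with the compared groups alone (edgeR adjusted p = 0.0642). It was lost too with the cross correlation covariate (edgeR adjusted p = 0.693) and without any 1 of 4 libraries (tau replicate 1 or 3, wild type replicate 1 or 3). The log2 change itself was -0.22 ± 0.18 with the covariate and -0.23 to -0.26 without one of those libraries. At 6 months the levels were 53.9 and 53.5 CPM in tau and 51.2, 53.3 and 50.4 CPM in wild type mice, with a log2 difference of 0.06 ± 0.09 (edgeR adjusted p = 1). There the groups were also separate, but in the opposite order, with the tau libraries slightly above. The effect at 11 months minus that at 6 months was -0.32 ± 0.12 (edgeR adjusted p = 0.160).

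In CK-p25 mice peak19135 did not pass at either time. It had 42.2, 42.3 and 40.4 CPM in CK-p25 and 48.0, 39.7 and 53.7 CPM in CK mice at 6 weeks (log2 -0.15 ± 0.14, edgeR adjusted p = 0.732). At 2 weeks it had 39.1, 42.7 and 55.9 CPM in CK-p25 and 50.8, 46.8 and 53.8 CPM in CK mice (log2 -0.15 ± 0.12, edgeR adjusted p = 0.742). The groups overlapped at both times. The 5 other domains of the Ccnd1 window were 211 to 708 bp wide and low, and none of them passed in any of the comparisons. Of these, peak19137 showed log2 differences of -0.51 ± 0.36 at 6 weeks and 0.67 ± 0.31 at 2 weeks between CK-p25 and CK mice, and the difference between the times did not pass (edgeR adjusted p = 0.974).

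The Gadd45b window held the most strongly acetylated domain per length of all 6 loci in the tau series and a weaker one beside it that rose. The leading domain, peak25267 (mm9 chr10:80391291-80394007, 2717 bp), had 34.9 CPM per kb over the tau series. It stood at 95.2, 98.8 and 105 CPM in tau mice at 11 months, against 93.1, 88.5 and 92.5 CPM in wild type mice. The groups did not overlap, but the log2 change of 0.12 ± 0.06 did not pass (edgeR adjusted p = 0.269), and its approximate 95% interval ran from -0.01 to 0.24. The adjoining peak25268 (mm9 chr10:80394108-80395850, 1743 bp) had 18.7, 22.7 and 23.2 CPM in tau and 16.6, 14.0 and 17.9 CPM in wild type mice. It rose by 0.39 ± 0.14 on the log2 scale, just under the threshold (edgeR adjusted p = 0.0496). The call was lost in DESeq2 (adjusted p = 0.146), with a replicate block (edgeR adjusted p = 0.0524) and with the compared groups alone (edgeR adjusted p = 0.0723). It was lost too without tau replicate 2 or 3 or wild type replicate 1 or 2. With the cross correlation covariate the log2 change was 0.11 ± 0.30 (edgeR adjusted p = 0.937).

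At 6 months peak25268 had 15.7 and 17.04 CPM in tau and 16.5, 14.8 and 13.7 CPM in wild type mice (log2 0.13 ± 0.17, edgeR adjusted p = 1), and peak25267 had 99.2 and 92.9 CPM in tau and 90.9, 96.0 and 90.3 CPM in wild type mice (log2 0.06 ± 0.07, edgeR adjusted p = 1). Neither pair of groups was separate. In the CK-p25 series the leading domain had 89.5, 90.6 and 84.6 CPM in CK-p25 and 92.8, 89.9 and 77.0 CPM in CK mice at 6 weeks. At 2 weeks it had 99.2, 95.1 and 101.2 CPM in CK-p25 and 96.2, 97.4 and 98.5 CPM in CK mice. The log2 difference was 0.01 ± 0.10 at 6 weeks (edgeR adjusted p = 0.986) and 0.01 ± 0.09 at 2 weeks (edgeR adjusted p = 0.986), with approximate 95% intervals of -0.18 to 0.20 and -0.16 to 0.18. Levels of peak25268 were 15.1, 19.2 and 20.6 CPM in CK-p25 and 18.0, 10.4 and 18.2 CPM in CK mice at 6 weeks, and 16.4, 19.5 and 19.7 CPM in CK-p25 and 18.2, 12.97 and 13.2 CPM in CK mice at 2 weeks. Its groups overlapped at both times, with a mean log2 difference of 0.24 ± 0.15 (edgeR adjusted p = 0.442). Next in level in the window was peak25265 (1496 bp), which did not pass in any comparison. It was at 48.1 ± 2.03 CPM in tau and 50.7 ± 4.34 CPM in wild type mice at 11 months (SD, n = 3 each), with overlap. At 6 months it had 47.4 and 41.8 CPM in tau and 49.7, 50.05 and 47.8 CPM in wild type mice, the tau libraries lying below (log2 -0.14 ± 0.10, edgeR adjusted p = 1). The groups were also separate at 2 weeks after induction, with 38.9, 40.1 and 36.9 CPM in CK-p25 and 45.0, 45.8 and 45.7 CPM in CK mice (log2 -0.23 ± 0.12, edgeR adjusted p = 0.500), but overlapped at 6 weeks (log2 0.02 ± 0.14, edgeR adjusted p = 0.978).

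**Figure D3:**
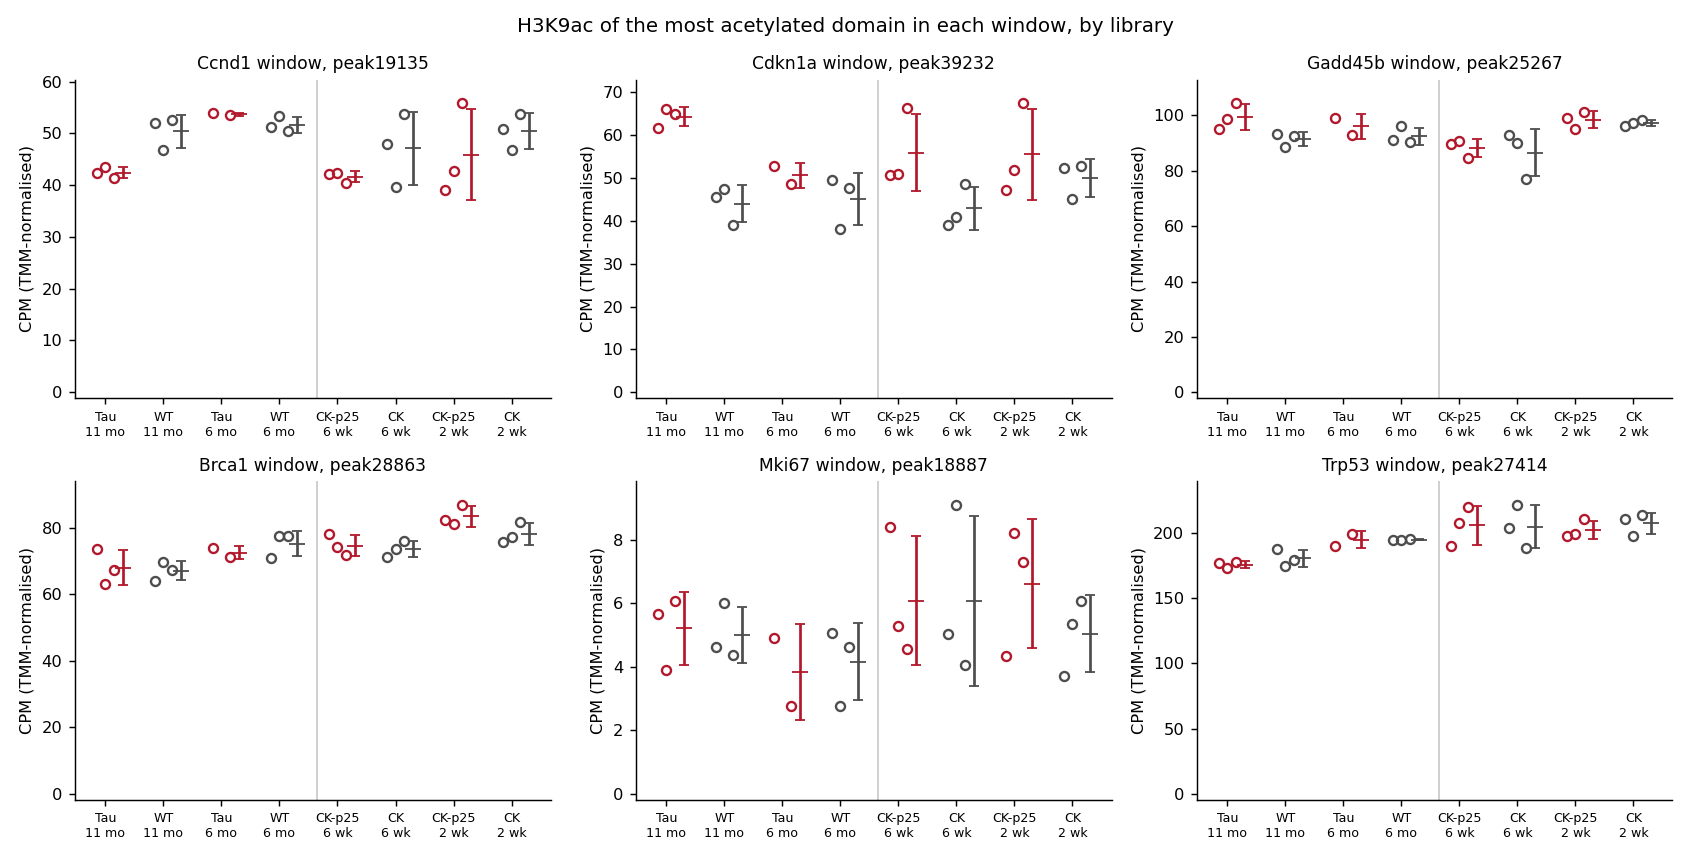
H3K9ac level (y axis, CPM after TMM scaling, from 0) of the domain with the most reads in each window, in each of the 23 libraries (circles) of the 8 groups (x axis); the bar beside each group is its mean ± SD, red marks disease models and grey controls, and the vertical line parts the 2 series, which were scaled separately. At Cdkn1a the 3 tau libraries at 11 months (61.8 to 66.1 CPM) lie above the 3 wild type libraries (39.1 to 47.3 CPM), at Ccnd1 the tau libraries lie below, and at Brca1, Mki67 and Trp53 the groups overlap at 11 months.

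At Brca1 the broad domain did not pass in any comparison, while a narrow, low domain beside it met the filter on low counts only in CK-p25 libraries. The leading domain, peak28863 (mm9 chr11:101413340-101415529, 2190 bp), had 73.5, 62.9 and 67.3 CPM in tau and 64.1, 69.7 and 67.4 CPM in wild type mice at 11 months (log2 0.02 ± 0.07, edgeR adjusted p = 0.906). At 6 months it had 73.8 and 71.1 CPM in tau and 70.9, 77.4 and 77.4 CPM in wild type mice (log2 -0.06 ± 0.08, edgeR adjusted p = 1). The groups overlapped at both ages. In the CK-p25 series it had 78.0, 74.1 and 71.6 CPM in CK-p25 and 71.3, 73.6 and 75.9 CPM in CK mice at 6 weeks, and 82.3, 81.0 and 86.9 CPM in CK-p25 and 75.6, 77.1 and 81.7 CPM in CK mice at 2 weeks. These groups overlapped too, and the mean log2 difference of both times was 0.07 ± 0.07 (edgeR adjusted p = 0.711), with an approximate 95% interval of -0.07 to 0.20.

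The narrow domain, peak28862 (mm9 chr11:101412807-101413168, 362 bp), was chosen for description after its values had been seen. It had 5.76, 2.65 and 3.81 CPM in CK-p25 mice at 6 weeks, against 1.58, 1.302 and 0 CPM in CK mice. At 2 weeks it had 5.31, 4.88 and 6.57 CPM in CK-p25 mice, against 0.826, 3.31 and 2.54 CPM in CK mice. At each time all 3 CK-p25 libraries lay above all 3 CK libraries. The underlying counts were 5 to 24 reads per library in CK-p25 and 0 to 5 in CK mice at 6 weeks, and 18 to 22 in CK-p25 and 2 to 13 in CK mice at 2 weeks. A count of 0 in the shallowest CK library allows up to 3.01 CPM, taking 3 counts as the limit of counting error. The log2 difference was 1.78 ± 0.57 at 6 weeks (edgeR adjusted p = 0.0713) and 1.19 ± 0.40 at 2 weeks (edgeR adjusted p = 0.114). The mean of both was 1.49 ± 0.35 and was under the threshold (edgeR adjusted p = 0.00160, DESeq2 adjusted p = 0.0286). The filter asked for about 3.47 CPM, which is 10 reads at the median depth, in at least 3 libraries. This was reached in 5 CK-p25 libraries and 0 CK libraries, so the domain was tested only through the group where it was high. Its passing, here and in the forms that follow, is therefore no support for a gain. Without the filter the mean was 1.49 (edgeR adjusted p = 0.00163), for a domain chosen after its values had been seen. Without CK-p25 replicate 1 at 6 weeks the mean was 1.24 ± 0.41 (edgeR adjusted p = 0.0649). Without both 6-week libraries labelled replicate 3 the mean of both times passed. In the tau series the domain had 4.22, 1.46 and 3.86 CPM in tau and 2.80, 2.13 and 2.60 CPM in wild type mice at 11 months and 2.56 and 2.77 CPM in tau and 3.17, 2.14 and 3.02 CPM in wild type mice at 6 months, with overlapping groups and no call.

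The Mki67 window held only 2 domains, both narrow and low. In peak18886 (mm9 chr7:142907455-142907879, 425 bp) the levels 2 weeks after induction were 4.10, 6.68 and 7.67 CPM in CK-p25 mice, against 2.48, 2.54 and 2.03 CPM in CK mice. All CK-p25 libraries were above all CK libraries, and the domain rose, with a log2 change of 1.302 ± 0.39 (edgeR adjusted p = 0.0488). This rests on 17 to 26 reads per library in CK-p25 and 4 to 10 in CK mice. The filter on low counts was met in 3 CK-p25 and 0 CK libraries at 2 weeks and in 1 of each at 6 weeks, so without the group where it was high the domain would not have been tested. The call was lost in DESeq2 (adjusted p = 0.374), with a replicate block (edgeR adjusted p = 0.0600), without a filter on low counts (edgeR adjusted p = 0.0519) and without any 1 library other than CK-p25 replicate 1. At 6 weeks the levels were 2.40, 1.98 and 6.10 CPM in CK-p25 and 4.10, 3.26 and 3.04 CPM in CK mice, with overlap (log2 -0.35 ± 0.47, edgeR adjusted p = 0.852). The effect at 6 weeks minus that at 2 weeks was -1.65 ± 0.62 (edgeR adjusted p = 0.974). Over the 23 tested domains this difference between times passed at 0 in edgeR and in DESeq2, and 0.00524% of all domains passed. At an unadjusted p under 0.05 were 3 of the 23 and 4.76% of all domains.

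Tau and wild type mice overlapped at peak18886, with 3.85, 1.71 and 3.86 CPM in tau and 4.28, 2.52 and 3.57 CPM in wild type mice at 11 months and 2.16 and 3.41 CPM in tau and 1.90, 2.99 and 2.62 CPM in wild type mice at 6 months. The slightly stronger peak18887 (mm9 chr7:142908382-142908895, 514 bp) had 5.68, 3.90 and 6.07 CPM in tau and 4.61, 6.01 and 4.38 CPM in wild type mice at 11 months, and 4.92 and 2.77 CPM in tau and 5.08, 2.78 and 4.64 CPM in wild type mice at 6 months. No separation was seen. Its levels in the CK-p25 series were 8.40, 5.29 and 4.57 CPM in CK-p25 and 5.05, 9.12 and 4.05 CPM in CK mice at 6 weeks and 4.34, 8.23 and 7.30 CPM in CK-p25 and 3.72, 5.34 and 6.09 CPM in CK mice at 2 weeks. The log2 difference at 2 weeks was 0.37 ± 0.31 (edgeR adjusted p = 0.777). With an approximate 95% interval of -0.25 to 0.98, this domain could not show a change of the size found at peak39232.

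**Figure D4:**
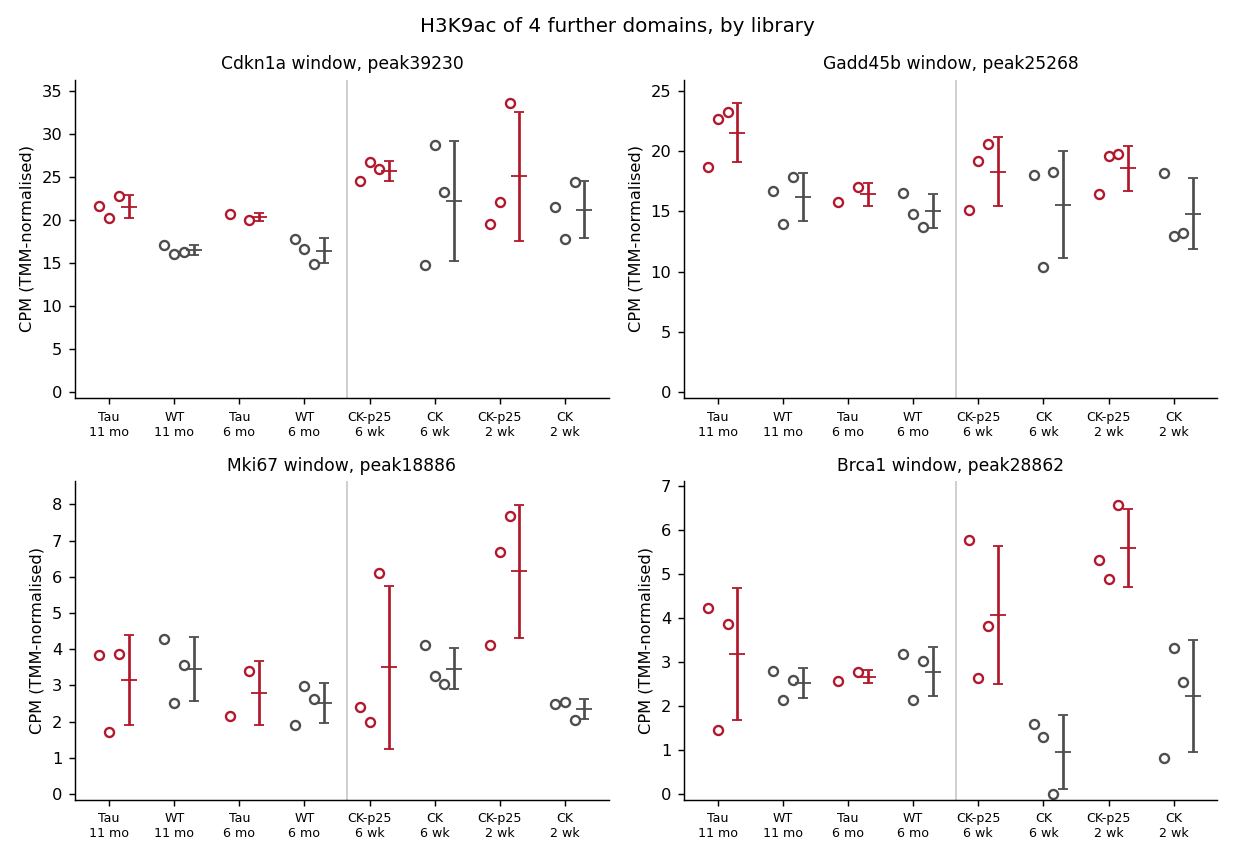
H3K9ac level (y axis, CPM after TMM scaling, from 0) in each library (circles) for 4 domains beside the leading ones, in the 8 groups (x axis); bars are means ± SD, red marks disease models and grey controls. At peak39230 and peak25268 the tau libraries at 11 months lie above wild type, at peak18886 the CK-p25 libraries at 2 weeks (4.10 to 7.67 CPM) lie above CK, and at peak28862 CK-p25 lies above CK at both times.

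The Trp53 window held the widest domain and the one with the most reads, and it did not pass in any comparison. In peak27414 (mm9 chr11:69389075-69396471, 7397 bp) the levels were 177, 173 and 177 CPM in tau mice at 11 months, against 187, 174 and 179 CPM in wild type mice. The groups overlapped, and the log2 difference of -0.04 ± 0.05 (edgeR adjusted p = 0.666) had an approximate 95% interval of -0.15 to 0.06. At 6 months the levels were 190 and 199 CPM in tau and 194, 195 and 195 CPM in wild type mice, a log2 difference of -0.00 ± 0.06 (edgeR adjusted p = 1). In the CK-p25 series they were 190, 208 and 219 CPM in CK-p25 and 204, 221 and 188 CPM in CK mice at 6 weeks. At 2 weeks they were 197, 199 and 210 CPM in CK-p25 and 210, 198 and 213 CPM in CK mice. The log2 differences were -0.01 ± 0.08 (edgeR adjusted p = 0.979) and -0.04 ± 0.07 (edgeR adjusted p = 0.937), with approximate 95% intervals of -0.17 to 0.15 and -0.18 to 0.11. The 3 other domains of the window did not pass in any comparison. The largest difference among them was at peak27412, which in CK-p25 mice at 6 weeks stood at 4.13 ± 2.40 CPM, against 7.63 ± 1.34 CPM in CK mice (SD, n = 3 each), a log2 difference of -0.60 ± 0.35 that did not pass (edgeR adjusted p = 0.504).

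Levels differed widely among the domains. The 6 leading domains had mean levels of 4.62 to 185 CPM in the tau series, from peak18887 of Mki67 to peak27414 of Trp53. The 14 domains that neither led a window nor passed, some of them mentioned above, had 2.47 to 48.5 CPM, 12 of them under 10 CPM. Per length the order differed. The leading domains of Gadd45b and Brca1 had 34.9 and 32.2 CPM per kb in the tau series, that of Trp53 had 25.1, those of Cdkn1a and Ccnd1 had 19.3 and 18.6, and that of Mki67 had 8.99 CPM per kb. The 14 remaining domains had standard errors of 0.08 to 0.36 on the log2 scale in the comparison at 11 months and 0.14 to 0.56 at 6 weeks after induction, so only large changes were detectable at most of them. In tau mice at 11 months 6 of these 14 had a positive log2 change, between -0.33 and 0.53 in all, with no adjusted p below 0.344 in edgeR.

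The leading domains of the 6 windows did not follow one another across libraries. With each series centred on its own mean, Pearson's r of log2 CPM over the 23 libraries was -0.35 to 0.33 for their 15 pairs, and -0.24 for Cdkn1a with Ccnd1. These values share library, depth and group structure and are given as a description. Among the 26630 to 26678 domains of at least 5 CPM outside a window and its surroundings, the one most like peak39232 of Cdkn1a was chr2:30117413-30123009 (mm9, r = 0.84). For Ccnd1 it was chr15:38446951-38450075 (r = 0.81), for Gadd45b chr11:79902329-79903889 (r = 0.80), for Trp53 chr13:23541019-23542585 (r = 0.80), for Mki67 chr8:87235179-87236518 (r = 0.76) and for Brca1 chr2:165707133-165712571 (r = 0.74). Each of these r is the highest of that many over 23 libraries, so its size is no measure of a link between the domains.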

How the data were processed

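H3K9ac ChIP-seq of mouse hippocampus gave 23 libraries with a column in the deposited count table, and 22 libraries of input DNA were not analysed here. The authors deposited raw read counts per domain for a common domain set, without normalization. The submitters' processing notes name BWA, Picard, MACS2 and mm9, without role or setting. Their text on the design says that input DNA served as the negative control when domains were called. Per the labels' protocols reads were single-end, so counts may include copies of a fragment, and limits given for a count cover counting error only. Columns were matched to samples by their labels, with 0 columns unmatched.

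The counts of every domain went into edgeR 4.0.16 under R 4.3.3 (quasi-likelihood F test, robust, TMM, filterByExpr by group), in 1 model of group means per series, since the series used different antibody lots. Two-sided p-values were adjusted (Benjamini-Hochberg) across every domain in the fit, and 0.05 was the threshold. Standard errors were the size of the log2 change over the square root of F, and approximate 95% intervals assume a normal distribution. CPM relate a count to its library's TMM-scaled total, within a series. The fits were tested on simulated counts. Separate animals are not stated for each library, and p-values measure the spread between these libraries. All 22 pairs of replicates differed beyond sampling noise (chi-square per degree of freedom 1.10 to 1.88).

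Members and lists were chosen with earlier results of these data known. Described singly were the domain with the most reads in each window and any other past the threshold in a comparison of a model with its control. To these peak28862, past it only in the mean of both CK-p25 times, was added after its values had been seen. Some values are also given, outside this rule, for peak39231, peak25265, peak19137 and peak27412, which passed in no comparison. The domain most like a leading one was that of highest r outside the windows and their surroundings of 250 kb. Lists of further cell cycle genes and of cell type markers were not tested, since the gene table at hand is of another build, so the tissue label was not checked against markers. Sequences are those of RefSeq on GRCm38.p6. Alternatives were DESeq2 1.42.0, other scalings, no filter, a threshold of 0.01, a replicate block, cross correlation as a covariate, the compared groups alone, a stricter member rule and each library left out.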

Additional observations from a re-analysis of the deposited data

How the results depend on the processing

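The alternatives, a threshold of 0.01 among them, gave 758 log2 changes for the 10 domains described singly. Of these, 713 kept the side of the threshold, 38 no longer passed and 7 newly passed. Of those that passed in either form 0 changed sign. Most of the 758 belong to results that did not pass as reported. The calls of peak18886 at 2 weeks and of peak19135, peak25268 and peak39230 at 11 months were each lost in 9 of 14 alternatives. Those of peak39232 at 11 months and of peak28862 in the mean of both times were lost in 1 of 14 and 1 of 20. The 4 domains called in tau mice at 11 months became 1 at a threshold of 0.01, in DESeq2 and with the compared groups alone, 0 with the cross correlation covariate, and 1 to 3 with single libraries left out. The gain at peak39232 of Cdkn1a was in every one of these counts but that with the covariate. The difference between ages, 0 as reported, gave 1 domain with library totals and 0 to 1 with single libraries left out. The 1 domain called in CK-p25 mice at 2 weeks became 0 at a threshold of 0.01, without the filter on low counts, in DESeq2 and with the replicate block, and 0 to 1 with single libraries left out. At 6 weeks, 0 as reported, 1 passed with the covariate and 0 to 1 with single libraries left out. For the mean of both times, 1 as reported, 2 passed with library totals, 3 with the covariate and 0 to 2 with single libraries left out. The cause of these changes was not tested. No library left out changed the 0 calls of the tau comparison at 6 months or of the CK-p25 difference between times.

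Libraries with the same replicate number did not deviate together across domains (r of -0.01 to 0.08 over 11 pairs). Counting noise lowers such an r, so whether the number stands for a shared batch cannot be told from it. In every group of the CK-p25 series replicate 3 had the fewest reads in domains and the lowest cross correlation. With the replicate block 3 domains passed in tau mice at 11 months, 0 in CK-p25 mice at 2 weeks and 1 for the mean of both times. Leaving out both 6-week libraries labelled replicate 3 was extended to the mean of both times after seeing the data, and 1 domain passed there and 0 at 6 weeks. Standard errors reached 0.57 on the log2 scale at peak28862 at 6 weeks, with 0 to 24 reads per library, so depth limits what was detectable there.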

Other observations

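Around the 6 windows, 220 further domains within 250 kb were tested in the tau series and 189 in the CK-p25 series. In tau mice at 11 months 11 of them rose and 17 fell, against 4.4% and 7.56% of all domains tested. Of the 28 called, 9 lay around Gadd45b (2 higher and 7 lower among 85), 9 around Trp53 (3 higher and 6 lower among 47), 4 around Cdkn1a, 4 around Brca1 (all higher, among 40), 1 around Ccnd1 and 1 around Mki67. In CK-p25 mice 1 of 189 rose and 0 fell at 6 weeks, and 4 rose and 1 fell at 2 weeks. Of all domains tested, 2.65% passed in either direction at 6 weeks and 2.12% at 2 weeks. The median log2 change of these neighbours was 0.03 in tau mice at 11 months, 0.02 in CK-p25 mice at 6 weeks and -0.03 at 2 weeks.

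Reads summed over the domains of a window were 88.0 to 93.7 CPM at Cdkn1a in tau mice at 11 months, against 59.6 to 66.7 CPM in wild type mice. Most of these reads lie in peak39232 and peak39230, both called above in the same libraries, so the Cdkn1a sums add no separate support. At Mki67 the sums were 8.45 to 15.0 CPM in CK-p25 mice at 2 weeks, against 6.19 to 8.12 CPM in CK mice. They include peak18886, which at 2 weeks met the filter on low counts only in CK-p25 libraries, while at peak18887 the groups overlapped. These sums are therefore no further support for a gain. At Trp53 they were 193 to 198 CPM in tau and 197 to 207 CPM in wild type mice at 11 months.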
